A study of Mus musculus with 5 samples.

Results

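Lpl, Gpihbp1, Angptl4, Vldlr, Cd36, Slc27a1, Fabp3, Fabp4 and Fabp5 form the route by which the heart takes fatty acids from circulating lipoproteins. They were found by symbol among the 49315 genes of each count table, and all 9 passed the filter on low counts that left 14221 genes for testing. The tables come from poly-A RNA sequencing of 5 mouse hearts. In 3 hearts (the HFHS hearts) the mice had eaten a diet high in fat and sucrose, and in 2 (the chow hearts) standard chow, in both cases for 18 weeks. All of these mice, the chow mice included, had been given iron dextran, an iron-carbohydrate complex, once by vein 48 hours before the hearts were perfused with buffered saline and frozen. Diet is therefore the only contrast that the labels give, and the effect of iron itself was not measured. Any difference between the groups in RNA quality, library preparation or perfusion cannot be told apart from diet. The sources used here give neither strain, sex and age nor whether libraries of a group came from separate mice, so p-values measure the spread between these libraries only, which may be technical. Total counts were between 14362766 and 17774735 per library. The tissue label fits the marker genes, since all 12 cardiomyocyte markers were tested and together took 75246 to 77251 CPM (counts scaled to the library total) in HFHS hearts and 73789 to 78652 CPM in chow hearts.

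The heart draws much of its fuel from triglycerides carried in very low density lipoproteins and chylomicrons. Cardiomyocytes make lipoprotein lipase, GPIHBP1 on capillary endothelial cells carries it to the capillary lumen and holds it there, and the fatty acids it releases cross the endothelium and enter the cardiomyocyte with the help of CD36, FATP1 (the product of Slc27a1) and the cytosolic fatty acid binding proteins. Fabp3 is the cardiomyocyte form, while Fabp4 and Fabp5 are forms of the capillary endothelium that are also found in fat cells and macrophages. Cd36, Slc27a1 and Vldlr are known from both cardiomyocytes and endothelium. These assignments are background and were not measured in these whole-heart libraries.

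In HFHS hearts the 3 capillary genes Fabp4, Fabp5 and Gpihbp1 fell, and Vldlr, Slc27a1 and Cd36 rose. Lpl, Fabp3 and Angptl4 did not pass the test. Counts were compared with edgeR's quasi-likelihood test, a gene passed at a Benjamini-Hochberg adjusted p of 0.05 over all 14221 genes, and log2 fold changes are HFHS over chow. By this rule 38.1% of all genes tested passed, 19.4% as higher and 18.7% as lower, so diet groups differed across much of the transcriptome and a share of 6 in 9 has to be read against that. The libraries of the diets did not overlap for 7 of the 9 genes, against 58.5% of all genes tested. The median log2 fold change of the 9 genes was -0.13, beside -0.01 over all genes tested.

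**Figure D1:**
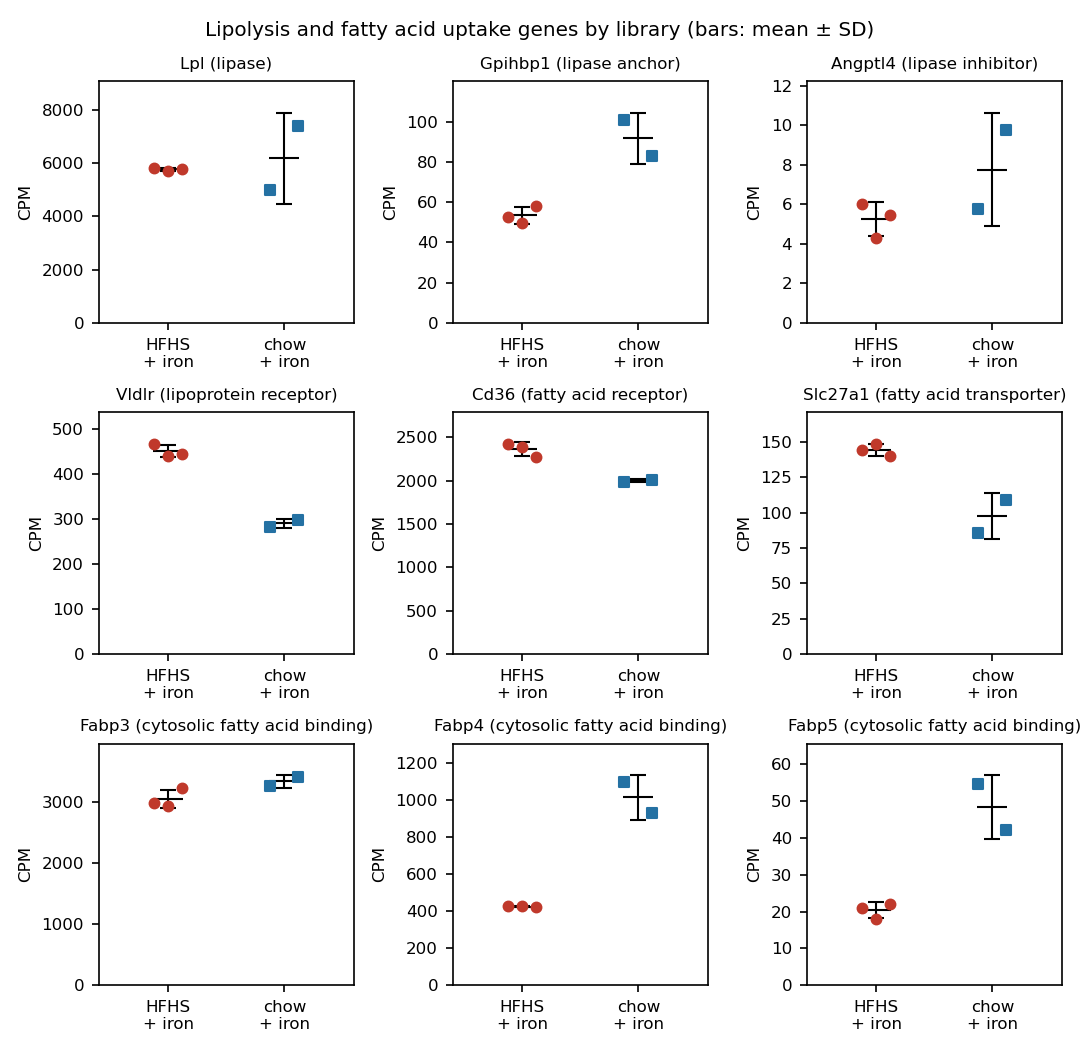
CPM (y axis, from 0) of each gene in every library, HFHS + iron (red circles, n = 3) left of chow + iron (blue squares, n = 2); black lines are the mean and SD. Fabp4, Fabp5 and Gpihbp1 lie lower and Vldlr, Slc27a1 and Cd36 higher in all HFHS hearts, while the chow libraries of Lpl lie at 4977 and 7384 CPM on either side of the HFHS libraries.

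Fold changes in these libraries also followed exon length. The median log2 fold change was -0.47 where exons were shortest and 0.32 where they were longest (outer bins of 10), and the rank correlation across genes was 0.43 (genes are not independent replicates). Each gene was therefore also fitted with offsets per library that remove a smooth trend on exon length, which brought that correlation to 0.035. The offsets left 15.4% of genes higher and 14.7% lower, and among the 9 genes 4 were then higher and 4 lower. They matter most for Fabp3, Lpl and Vldlr, whose exon lengths of 823, 10478 and 10068 bases are the shortest and the longest of the 9, and the value under offsets is given beside each gene.

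**Figure D2:**
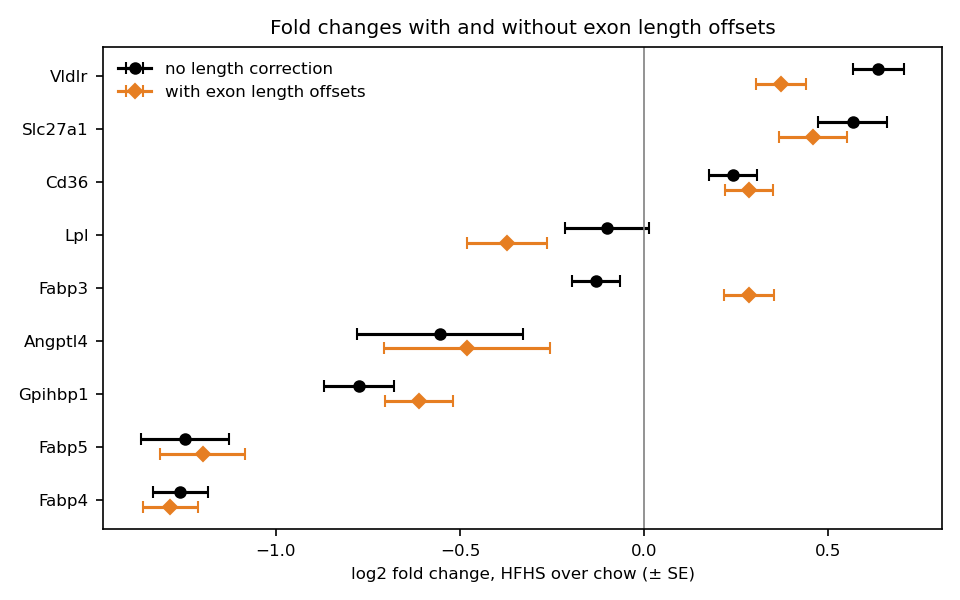
Log2 fold change (x axis, HFHS over chow, ± SE) of each gene without length correction (black circles) and with exon length offsets (orange diamonds). Fabp4, Fabp5, Gpihbp1, Cd36 and Slc27a1 keep their side of 0 with similar sizes, Vldlr moves to 0.37, Lpl moves to -0.37 and Fabp3 crosses 0.

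Lipoprotein lipase, the enzyme that frees fatty acids from triglycerides, is encoded by Lpl (ENSMUSG00000015568, chromosome 8 from 68880491 to 68907448, GRCm38, plus strand). It ranked 16th of all genes tested by mean CPM. Lpl was at 5824, 5700.1 and 5763 CPM in HFHS hearts and at 4977 and 7384 CPM in chow hearts. The HFHS hearts were nearly identical, with a coefficient of variation of 1.07%, while the chow hearts differed 1.48-fold and enclosed them. Among 1142 genes with a mean of at least 100 CPM, 18, or 1.58%, had chow libraries at least as far apart. The log2 fold change was -0.10 (SE 0.115) with an adjusted p of 0.525 (edgeR). It was -0.36 with an adjusted p of 0.00028 without chow replicate 1, and 0.21 with an adjusted p of 0.0162 without chow replicate 2, where the lone chow library is assumed to vary like the HFHS libraries. With exon length offsets it was -0.37 with an adjusted p of 0.0177. No direction for Lpl holds across these choices.

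**Figure D3:**
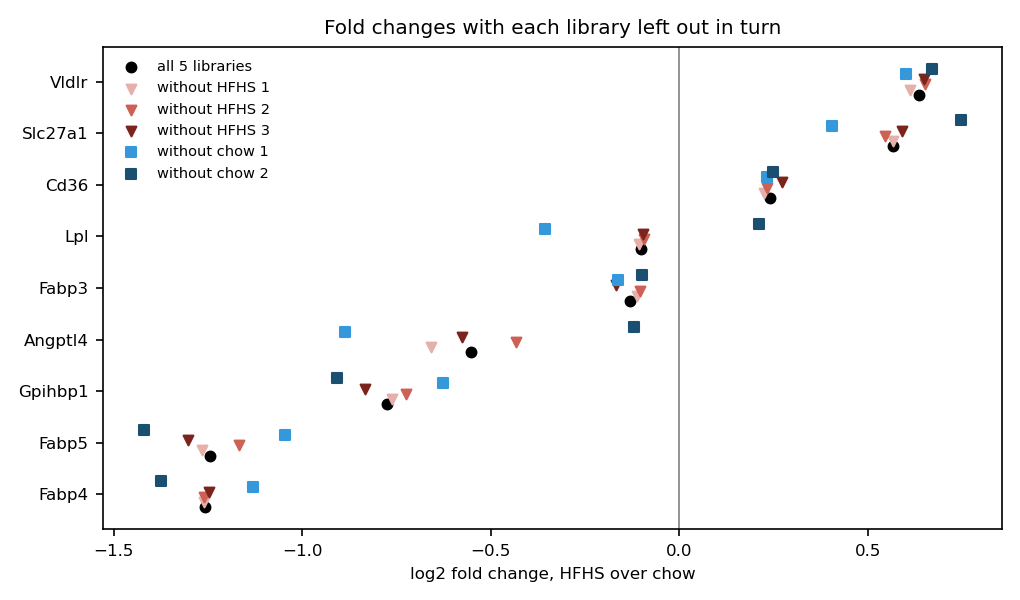
Log2 fold change (x axis, HFHS over chow) of each gene with all 5 libraries (black circle) and with each HFHS library (triangles) or each chow library (squares) left out. The squares of Lpl fall on both sides of 0, at -0.36 and 0.21, and those of Angptl4 at -0.89 and -0.12, while Fabp4, Fabp5, Gpihbp1, Slc27a1, Vldlr and Cd36 stay on 1 side.

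Gpihbp1 (ENSMUSG00000022579, chromosome 15 from 75596628 to 75599481, plus strand) encodes the endothelial protein that binds the lipase and takes it into the capillary lumen. It was at 52.8, 49.9 and 58.2 CPM in HFHS hearts, against 101 and 82.9 CPM in chow hearts. Every HFHS library lay below both chow libraries. The gene was 1.71-fold lower in HFHS hearts, at -0.77 on the log2 scale (SE 0.0953, adjusted p 2.62e-05). Under exon length offsets it was -0.61 with an adjusted p of 0.00017. In whole-heart RNA, fewer cells of a type and less RNA per cell cannot be told apart.

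Angptl4 (ENSMUSG00000002289, chromosome 17 from 33773750 to 33781575, minus strand) encodes a secreted inhibitor that inactivates lipoprotein lipase and is a known target of PPAR receptors. It had 60 to 96 counts in HFHS libraries and 106 and 176 counts in chow libraries, the fewest of the 9 genes. It was at 5.996, 4.31 and 5.47 CPM in HFHS hearts and at 5.74 and 9.78 CPM in chow hearts. The groups overlapped, because chow replicate 1 lay within the HFHS range. The log2 fold change was -0.55 (SE 0.225) with an adjusted p of 0.0671. Under exon length offsets it was -0.48 with an adjusted p of 0.124. It passed without chow replicate 1, at -0.89 with an adjusted p of 0.00393, and was -0.12 with an adjusted p of 0.741 without chow replicate 2 (range of the adjusted p over all alternatives 0.00393 to 0.741). Lpl and Angptl4 were both higher in chow replicate 2 than in chow replicate 1, by 1.48-fold and 1.70-fold, and Slc27a1 by 1.27-fold. Pdk4, a pyruvate dehydrogenase kinase gene induced by fasting and by PPAR receptors, differed 2.54-fold the same way. Gpihbp1, Fabp4 and Fabp5 were lower in chow replicate 2, at 0.824, 0.845 and 0.773 of chow replicate 1.

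Vldlr (ENSMUSG00000024924, chromosome 19 from 27216484 to 27254231, plus strand) encodes the receptor that binds triglyceride-rich lipoproteins carrying apolipoprotein E. It was at 466, 440.2 and 444 CPM in HFHS hearts, against 283 and 297 CPM in chow hearts. The libraries within each diet lay close together, and the groups were far apart. Vldlr rose 1.55-fold, or 0.64 on the log2 scale (SE 0.0693, adjusted p 9.04e-06). With exon length offsets the log2 fold change was 0.37 and the adjusted p 0.000839, so the call remained at a smaller size.

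Slc27a1 (ENSMUSG00000031808, chromosome 8 from 71568882 to 71587302, plus strand) encodes FATP1, which draws long-chain fatty acids into the cell by coupling them to coenzyme A. It was at 144, 148 and 139.7 CPM in HFHS hearts, against 85.8 and 109 CPM in chow hearts. All HFHS libraries lay above both chow libraries, which differed from each other more than the HFHS libraries did. Slc27a1 rose 1.48-fold, or 0.57 on the log2 scale (SE 0.0939, adjusted p 0.000306), and by 0.46 with exon length offsets (adjusted p 0.0017). It made up 85.3% ± 1.58 (SD, n = 3) of the TPM (counts divided by exon length, scaled to the same total in each library) of Slc27a1 to Slc27a6 in HFHS hearts and 80.7% ± 1.90 (SD, n = 2) in chow hearts. Slc27a6, which encodes the main family member of the human heart, had 0 to 9 counts per library.

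Cd36 (ENSMUSG00000002944, chromosome 5 from 17781690 to 17888801, minus strand) encodes the scavenger receptor through which much of the heart's long-chain fatty acid uptake passes. It ranked 25th of all genes by mean CPM. It was at 2421, 2389.5 and 2271 CPM in HFHS hearts, against 1985 and 2010.2 CPM in chow hearts. The chow libraries were 1.01-fold apart and lay below all HFHS libraries. Cd36 rose 1.18-fold, or 0.24 on the log2 scale (SE 0.064, adjusted p 0.00863), and by 0.29 with exon length offsets (adjusted p 0.00407). The call was lost without HFHS replicate 1, with an adjusted p of 0.0558, and without HFHS replicate 2, with 0.0604, at log2 fold changes of 0.22 and 0.23 (range of the adjusted p over all alternatives 0.00093 to 0.0604).

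The promoters of the 3 genes that rose are shown because these genes moved in the same direction. RefSeq windows (GRCm38.p6) were on hand for 4 of the 9 genes, and the 250 bases before the start site nearest to the gene's outer end are printed, for Vldlr chr19:27216234-27216483 on the plus strand, for Slc27a1 chr8:71568621-71568870 on the plus strand and for Cd36 chr5:17835897-17836146 on the minus strand. Capitals mark AGGTCA, the core sequence bound by PPAR and other nuclear receptors, the TATA box letters TATAAA, the CCAAT box and the GC box letters GGGCGG, on either strand; no matches overlapped each other.
Vldlr: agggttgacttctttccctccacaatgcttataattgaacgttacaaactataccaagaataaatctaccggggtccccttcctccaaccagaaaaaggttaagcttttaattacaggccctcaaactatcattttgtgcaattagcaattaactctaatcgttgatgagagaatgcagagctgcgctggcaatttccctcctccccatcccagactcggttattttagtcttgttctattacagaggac
Slc27a1: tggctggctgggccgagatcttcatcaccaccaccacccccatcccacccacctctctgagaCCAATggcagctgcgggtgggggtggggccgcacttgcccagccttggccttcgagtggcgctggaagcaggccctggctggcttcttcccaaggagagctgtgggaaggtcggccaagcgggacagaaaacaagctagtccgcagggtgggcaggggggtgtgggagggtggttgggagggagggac
Cd36: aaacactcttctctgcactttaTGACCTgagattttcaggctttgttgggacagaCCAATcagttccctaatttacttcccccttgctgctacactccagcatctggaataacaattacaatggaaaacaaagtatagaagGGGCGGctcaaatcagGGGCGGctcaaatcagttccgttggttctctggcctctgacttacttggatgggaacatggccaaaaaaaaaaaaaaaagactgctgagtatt

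The AGGTCA core was found in the Cd36 window, at 228 bases before the start site, as TGACCT on the printed strand, and not in those of Vldlr and Slc27a1; 14% of 32817 windows of the same length hold it. The full PPAR response element, a direct repeat of that core, was in none of the 3 windows and in 0.0335% of all windows. CCAAT was in the Cd36 and Slc27a1 windows and in 33.8% of all, GGGCGG was in the Cd36 window at 2 places and in 32.7% of all, and TATAAA was in none of the 3 and in 12.4% of all. The Cd36 window precedes a start site 52905 bases inside the gene's outer end in the tables. These matches describe the letters in the windows only.

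Fabp3 (ENSMUSG00000028773, chromosome 4 from 130308595 to 130315463, plus strand) encodes the fatty acid carrier of the cardiomyocyte cytosol. It was at 2985, 2944 and 3228 CPM in HFHS hearts and at 3267 and 3418 CPM in chow hearts. The groups came close without overlapping, and the gap of HFHS replicate 3 to the nearest chow library was smaller than its gap to the other HFHS libraries. The log2 fold change was -0.13 (SE 0.0661) with an adjusted p of 0.136. With exon length offsets the direction turned, to a log2 fold change of 0.28 and an adjusted p of 0.0051, and without HFHS replicate 3 it was -0.17 with an adjusted p of 0.0476. The direction of Fabp3 therefore depends on how length is treated. Its processed pseudogene Fabp3-ps1 had 128 to 178 counts per library and the overlapping opposite-strand gene Zcchc17, with 81 shared exon bases, 219 to 484, against 41021 to 61528 counts for Fabp3.

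Fabp4 (ENSMUSG00000062515, chromosome 3 from 10204088 to 10208576, minus strand) encodes the fatty acid binding protein of heart capillaries, fat cells and macrophages. It was at 425.7, 426 and 420.3 CPM in HFHS hearts, against 1100 and 929.6 CPM in chow hearts. The HFHS libraries agreed to within 1.01-fold, and both chow libraries were more than 2 times as high. Fabp4 was 2.39-fold lower in HFHS hearts, at -1.26 on the log2 scale (SE 0.0757, adjusted p 6.23e-08). By p-value it ranked 32nd of all genes tested.

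Fabp5 (ENSMUSG00000027533, chromosome 3 from 10012548 to 10016607, plus strand), its neighbour on the chromosome, encodes a closely related protein of endothelium and skin. It was at 20.98, 18.0 and 22.1 CPM in HFHS hearts, against 54.6 and 42.2 CPM in chow hearts. The groups were well apart. Fabp5 was 2.37-fold lower, at -1.25 on the log2 scale (SE 0.119, adjusted p 2.80e-06). Fitted with exon length offsets, the log2 fold changes of Fabp4 and Fabp5 were -1.29 and -1.20. The offsets used exon lengths of 4489 and 3567 bases, unions over isoforms that may exceed the main transcripts. The pseudogene Fabp5l2 had 0 counts in every library.

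Per length, Fabp3 was by far the most abundant of the 9 genes and Angptl4 the least. In HFHS hearts Fabp3 was at 7072 ± 385 TPM, Cd36 at 1253 ± 35.8 TPM and Lpl at 1048 ± 8.97 TPM (SD, n = 3 each). In chow hearts Fabp3 was at 7836 ± 463 TPM, Cd36 at 1073 ± 38.8 TPM and Lpl at 1142 ± 344 TPM (SD, n = 2 each). Cd36 and Lpl could not be ordered in chow hearts, where Cd36 lay between the values of Lpl. Fabp4 followed, with 180.1 ± 0.932 TPM in HFHS and 435 ± 39.8 TPM in chow hearts. Vldlr was at 85.2 ± 2.23 TPM in HFHS and 55.5 ± 3.37 TPM in chow hearts. Slc27a1 lay above Gpihbp1 in HFHS hearts, at 47.1 ± 1.36 TPM and 40.04 ± 3.27 TPM, while in chow hearts Slc27a1 was at 32.2 ± 6.28 TPM and Gpihbp1 at 69.2 ± 7.59 TPM. Fabp5 was at 10.9 ± 1.14 TPM in HFHS and 26.1 ± 4.03 TPM in chow hearts, and Angptl4 at 3.05 ± 0.494 TPM in HFHS and 4.58 ± 1.80 TPM in chow hearts. The exon length of the tables is the union over all isoforms, so the TPM of genes with many isoforms may be understated. For Fabp4 this union of 4489 bases covers the whole gene from start to end, introns included. That of Fabp5 is 3567 bases, against 823 for Fabp3. Levels of Fabp4 and Fabp5 relative to Fabp3 may thus be understated, though each length is the same in every library.

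Ratios of these levels within a library do not depend on library scaling. Lpl stood at 26.9, 27.9 and 24.1 times the TPM of Gpihbp1 in HFHS hearts, against 12.1 and 21.7 in chow hearts. The ratio was higher in every HFHS heart, but chow replicate 2 lay closer to the HFHS hearts than to the other chow heart. Fabp4 stood at 0.0261, 0.0265 and 0.0239 of Fabp3 in HFHS hearts, against 0.0617 and 0.0499 in chow hearts. Among Fabp3, Fabp4 and Fabp5, Fabp4 thus made up 2.48% ± 0.137 (SD, n = 3) in HFHS hearts and 5.26% ± 0.745 (SD, n = 2) in chow hearts. The size of these shares rests on the union exon lengths. Fabp5 stood at 0.062, 0.0532 and 0.0662 of Fabp4 in HFHS hearts and at 0.0624 and 0.0571 in chow hearts, so the ratio of the capillary forms to each other overlapped between diets. Vldlr stood at 0.0833, 0.0804 and 0.0802 of Lpl in HFHS hearts, against 0.0592 and 0.0418 in chow hearts. Gpihbp1 over Fabp4, Cd36 over Fabp3, Slc27a1 over Cd36 and Lpl over Angptl4 were also higher in every HFHS heart, by 0.48, 0.37, 0.34 and 0.45 on the log2 scale. In all 14 ratios were computed, including those to cell markers given further on, and in 11 the diets did not overlap. Several of these ratios share a gene, and no such share was computed for ratios of other genes. Of single genes tested, 58.5% did not overlap. An exact two-sided permutation test of 3 against 2 libraries cannot go below 0.2, so none could pass, and the choice of which to print in full was made with their values known. A ratio of genes of unequal length still carries the length trend, so each was also taken from the fold changes fitted with exon length offsets, a choice made after seeing the data. The log2 difference between diets was then 0.24 in place of 0.70 for Lpl over Gpihbp1 and 0.11 in place of 0.45 for Lpl over Angptl4. For Cd36 over Fabp3 it was 0.00036 in place of 0.37, so those genes moved alike with these offsets but not without them. For Slc27a1 over Cd36 it was 0.17 in place of 0.34. The differences for Vldlr over Lpl, at 0.74 in place of 0.71, Fabp4 over Fabp3, at -1.57 in place of -1.12, and Gpihbp1 over Fabp4, at 0.67 in place of 0.48, were no smaller. The offsets moved Fabp3 from -0.13 to 0.28 but Fabp4 only from -1.26 to -1.29. They used the union of 4489 bases for Fabp4, which covers its introns, so its correction may be too small. The differences with Fabp4 rest on that length.

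**Figure D4:**
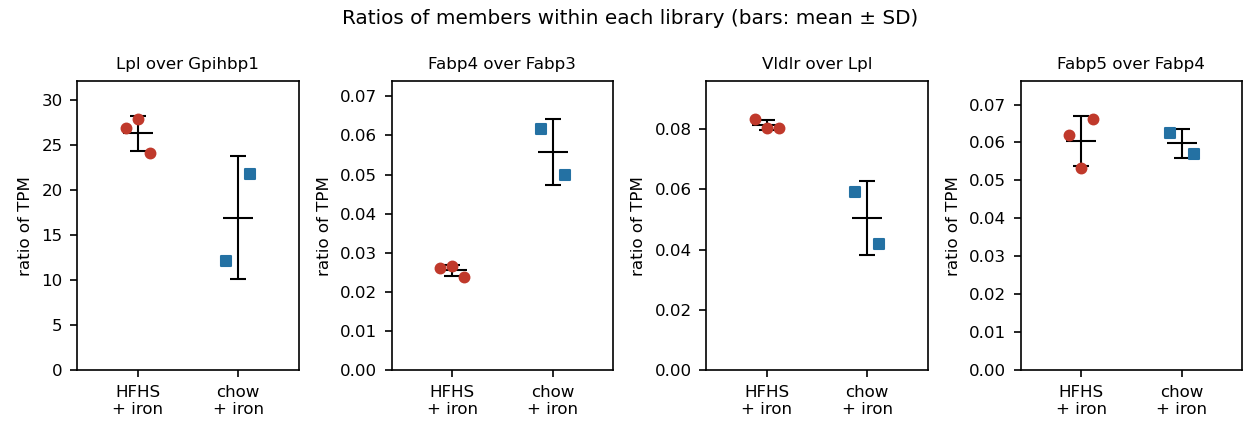
Ratio of length-scaled levels (TPM, y axis, from 0) of 4 pairs of genes in every library, HFHS + iron (red circles, n = 3) left of chow + iron (blue squares, n = 2), with mean and SD. Lpl over Gpihbp1 and Vldlr over Lpl are higher and Fabp4 over Fabp3 is lower in all HFHS libraries, while Fabp5 over Fabp4 overlaps; no length offsets are applied in the plot.

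Markers of capillary endothelium moved with Fabp4, Fabp5 and Gpihbp1. Of 8 capillary markers 7 fell, none rose, and their median log2 fold change was -0.86; Ly6c1 was 2.10-fold, Rgcc 1.91-fold and the capillary carbonic anhydrase gene Car4 1.69-fold lower. The summed level of this list was 688 to 758 CPM in HFHS hearts and 1057 and 1090 CPM in chow hearts. Of 15 general endothelial markers 8 fell and none rose, with a median of -0.43 and a range from -1.12 to 0.18. Pecam1, an adhesion molecule of all endothelium, fell, while Cdh5 and Kdr had log2 fold changes of -0.05 and -0.06 with adjusted p of 0.642 and 0.514. Kdr stands on both lists. With exon length offsets 8 of the 8 capillary and 10 of the 15 endothelial markers fell, with a capillary median of -0.56, Kdr at -0.30 (adjusted p 0.00472) and Cdh5 at -0.06 (adjusted p 0.618).

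Set against these markers within each library, Gpihbp1 stood at 2.69, 2.51 and 2.99 of Car4 in HFHS hearts and at 2.98 and 2.54 in chow hearts, with overlap, but at 0.791, 0.794 and 0.915 of Pecam1 in HFHS hearts, against 1.17 and 1.04 in chow hearts. Relative to Kdr it stood at 0.703, 0.674 and 0.770 in HFHS hearts, against 1.35 and 1.01 in chow hearts. Fabp4 stood at 12.3, 12.2 and 12.3 of Car4 in HFHS hearts, against 18.5 and 16.2 in chow hearts, and at 3.63, 3.86 and 3.76 of Pecam1 in HFHS hearts, against 7.28 and 6.61 in chow hearts. Relative to Cd68, a macrophage marker, Fabp4 stood at 24.5, 32.0 and 20.5 in HFHS hearts and at 35.1 and 27.7 in chow hearts, with overlap. These ratios too shifted with exon length offsets. The log2 difference between diets of Gpihbp1 was then -0.12 relative to Pecam1, in place of -0.41, and -0.31 relative to Kdr, in place of -0.71. Relative to Car4 it was -0.11 in place of -0.01. That of Fabp4 was -0.79 relative to Pecam1, in place of -0.89, and -0.79 relative to Car4, in place of -0.50. Relative to Cd68 the difference for Fabp4 was -0.75 in place of -0.31. The offset values of Fabp4 rest on its union exon length, which may exceed the main transcript. The part of endothelial RNA content in the fall of these genes was not tested.

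Other cell types also moved. All 10 macrophage markers fell, with a median log2 fold change of -0.84 and a summed level of 138 to 159.7 CPM in HFHS hearts and 282 and 322 CPM in chow hearts; their part in the values of Fabp4 and Fabp5, which macrophages also express, was not tested. All 8 fibroblast markers fell, with a median of -0.50, and their sum was 844 to 909 CPM in HFHS hearts and 1344 and 1470 CPM in chow hearts. Of 8 pericyte markers 4 fell and 2 rose, with sums of 1234 to 1312 CPM in HFHS hearts and 1419 and 1435 CPM in chow hearts. Of 12 cardiomyocyte markers 5 rose and 5 fell, among them Myh6 as higher and Myl2 and Tnni3 as lower. With exon length offsets 8 of the macrophage, 6 of the fibroblast and 4 of the pericyte markers fell, and 6 cardiomyocyte markers rose and 4 fell. All 7 red cell markers fell, with a summed level of 250.4 to 524 CPM in HFHS hearts and 1487 and 1703 CPM in chow hearts. Of 5 tested skeletal muscle markers 1, Ckm, fell; it is also a heart gene, and its adjusted p was 0.0514 with exon length offsets.

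Fat cells express Fabp4, Lpl and Cd36 strongly, but their defining markers were at or near 0. Adipoq, Lep, Retn, Cidec and Adrb3 had 0 or 1 count in each library and Cfd 0 to 3, in both diets. Plin1 had 3, 3 and 4 counts in HFHS libraries and 0 and 0 in chow libraries. Of the brown fat genes Ucp1 had 0 to 2 counts and Elovl3 0 or 1. Of the fat lists Plin4, which heart muscle also expresses, rose 1.90-fold, and Cidea was at 24.4 ± 1.83 CPM in HFHS hearts (SD, n = 3) and 21.6 ± 0.731 CPM in chow hearts (SD, n = 2; edgeR adjusted p 0.207). Cidea was higher with exon length offsets, at 0.56 on the log2 scale (edgeR adjusted p 0.000706).

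**Figure D5:**
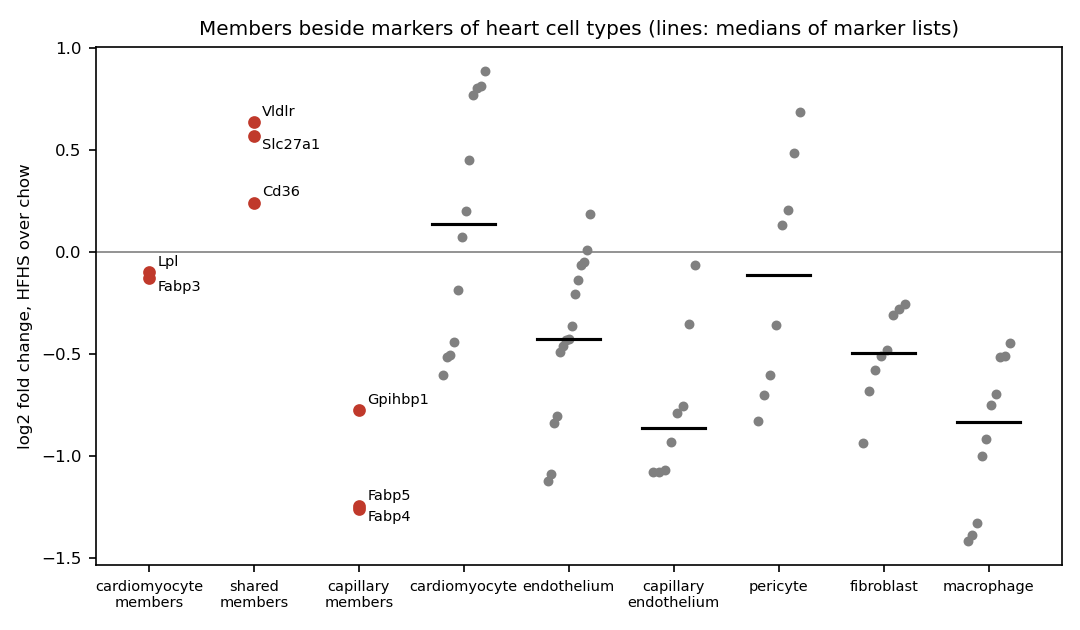
Log2 fold change (y axis, HFHS over chow) of the 8 genes with an assigned site (red, named) beside the tested markers of 6 heart cell types (grey points, 1 per gene; black lines are list medians). Gpihbp1 lies within the range of the capillary markers, and Fabp4 and Fabp5 lie below it. Each of these genes also lies within the range of the macrophage markers, from -1.42 to -0.45. Lpl and Fabp3 lie within the range of the cardiomyocyte markers.

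Of 98 further genes of the pathway, 77 could be tested, of which 22 were higher, 18 lower and 37 did not pass, beside 19.4% higher and 18.7% lower over all genes tested. These 77 genes gave 15 higher and 17 lower with exon length offsets. Among 14 tested partners of the lipase and its lipoproteins 5 rose and 4 fell, with a median log2 fold change of -0.06, and with exon length offsets 2 rose and 3 fell. Apoe, the apolipoprotein that VLDLR binds, was 1.89-fold lower (adjusted p 1.69e-05). Sel1l, an endoplasmic reticulum protein needed for the lipase to leave that compartment, rose 1.52-fold, and Hspg2, the heparan sulfate proteoglycan perlecan, rose 1.46-fold. Under those offsets Sel1l was at 0.38 on the log2 scale, in place of 0.60, and the adjusted p of Hspg2 was 0.0674. Apoc2, the lipase activator made mainly by the liver, had 0 counts in every library, and Angptl8, Apoc3, Apoa5, Lipc and Lipg had at most 4 counts in any library. Among 10 tested lipoprotein receptor genes 2 rose and 1 fell. Cubn rose 2.08-fold at 4.98 ± 0.684 CPM in HFHS hearts (SD, n = 3) and 2.38 ± 0.538 CPM in chow hearts (SD, n = 2; edgeR adjusted p 0.00325), and its log2 fold change of 1.06 was 0.69 with exon length offsets (adjusted p 0.0449). Mylip, a ligase that degrades the receptors, was 1.29-fold lower and Lrp1 1.19-fold higher, and both calls were lost with exon length offsets, with adjusted p of 0.111 and 0.161.

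Of 5 tested further fatty acid carriers 1 rose and 1 fell. Got2, the mitochondrial aspartate aminotransferase that was also described as a fatty acid binding protein of the plasma membrane, rose 1.29-fold. Dbi, the acyl-CoA binding protein, was 1.33-fold lower, which did not remain with exon length offsets, with an adjusted p of 0.601. Slc27a3 was at 1.04 ± 0.364 CPM in HFHS hearts (SD, n = 3) and 1.79 ± 0.537 CPM in chow hearts (SD, n = 2; edgeR adjusted p 0.127). Slc27a2, Slc27a5, Slc27a6, Fabp2, Fabp6, Pmp2, Fabp12, Mfsd2a and Ffar4 had under 10 counts in every library.

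Genes that handle CD36 in the cell included 8 that fell and 2 that rose among 21 tested, with a median log2 fold change of -0.14. Cav1, the caveolin that keeps CD36 at the cell surface and that is most abundant in endothelium, was at 269 ± 9.59 CPM in HFHS hearts (SD, n = 3) and 424 ± 76.9 CPM in chow hearts (SD, n = 2), 1.58-fold lower with an edgeR adjusted p of 8.48e-05. Cav2 was 1.65-fold lower, and Selenok, a cofactor of CD36 palmitoylation, 1.69-fold lower, or -0.76 on the log2 scale and -0.38 with exon length offsets. Under those offsets 9 genes of this list fell and 2 rose. Among 15 regulators of endothelial fatty acid transport 4 rose and 4 fell, with a median of 0.01. Under exon length offsets 1 rose and 5 fell, with a median of -0.14. Those with the smallest p were all lower: the apelin receptor gene Aplnr 1.90-fold, and Tcf15 and Meox2, partner transcription factors that drive fatty acid uptake genes in heart capillaries, 2.12-fold and 1.73-fold. Tcf15 was at 6.67 ± 0.641 CPM in HFHS hearts (SD, n = 3) and 14.1 ± 1.37 CPM in chow hearts (SD, n = 2; edgeR adjusted p 4.51e-05), at -1.08 on the log2 scale and -0.67 with exon length offsets. Tcf15 and Meox2 also stand on the capillary marker list.

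Angptl4, Cd36, Fabp3, Lpl, Slc27a1 and Vldlr are known PPAR targets in various tissues, but this list of members may be incomplete. Of those named, Vldlr, Slc27a1 and Cd36 rose, and Angptl4, Fabp3 and Lpl did not pass. Fabp4 and Gpihbp1, which were left off the list, fell, at -1.26 and -0.77 on the log2 scale. Whether PPAR receptors act on any member in these hearts was not tested. Beside the members, 13 other PPAR targets of heart were tested. Of these 8 rose and none fell, with a median log2 fold change of 0.51 and 0.52 with exon length offsets. The mitochondrial carnitine palmitoyltransferase gene Cpt1b rose 2.41-fold and the thioesterase gene Acot2 1.91-fold. Pdk4, at 493 to 712 CPM in HFHS hearts and 213 and 540.2 CPM in chow hearts, did not pass (adjusted p 0.0868). Fgf21 had 0 counts in every library, and Cyp4a10 and Cyp4a14 at most 5 in any. Genes of this kind already belong to results known for these libraries when the list was made, so the count is no independent support.

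As a description of pattern, log2 CPM over the 5 libraries was centred for each of 10060 genes with a mean of at least 4 CPM, and the genes at the smallest Euclidean distance were found. For Lpl these were Dnaaf3, Prcc and Rapsn, at distances of 0.0994, 0.116 and 0.117. For Gpihbp1 they were Hint3, Cebpzos and Tmem204, at 0.0292, 0.0558 and 0.0737, and for Cd36 Polr2b, Ptcd3 and Ammecr1l, at 0.0254, 0.0296 and 0.0296. The nearest genes of Lpl were more than 3 times as distant as those of Cd36, and Dnaaf3 shared the wide chow gap, at 8.45 and 12.8 CPM.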

How the data were processed

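Each library has 1 table of whole-number counts per gene, deposited by the authors. The submitters' processing notes name Trimmomatic 0.36, STAR 2.5.2b, featureCounts (Subread 1.5.2) and the build GRCm38. No source used here gives the strand setting, the annotation release or the handling of multiply mapped reads, so reads of overlapping genes and pseudogenes may be shared. Per the file headers, each table also lists exon positions and exon length. Symbols came from GENCODE M21 (GRCm38). The start and end of 8 of the 9 genes were the same in both; those of Angptl4 are as in the tables.

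The 3 HFHS and 2 chow libraries were compared by diet in edgeR 4.0.16 under R 4.3.3 (filter by filterByExpr, TMM, glmQLFit, glmQLFTest on diet, Benjamini-Hochberg over all genes tested). Each SE was derived from the fold change and its F value, an approximation. CPM uses TMM-adjusted library sizes, except in summed marker levels, which use total counts. The distances used log2 CPM with a prior count of 2. A count of 0 allows 0.169 to 0.209 CPM (3 counts of the library; counting error only). Between libraries, the chi-square per degree of freedom was 2.64 to 5.71 among HFHS, 8.84 between chow and 47.5 to 62.5 across diets, so no library pair differed by sampling noise alone.

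Alternatives were RLE and upper quartile size factors, DESeq2 1.42.0, limma-voom (limma 3.58.1), no filter or at least 1 CPM in 2 libraries, mitochondrial genes left out, each library left out, the replicate number as a block, exon length or length and GC offsets (mgcv 1.9.3; GC known for 99.8% of genes tested), and an adjusted p of 0.01. The members, gene lists, marker lists, tests and alternatives were chosen with earlier results of these data known. The genes named are the 9 members, of each pathway list the 3 with the smallest p and those under 10 counts in every library, and the 3 nearest in pattern to Lpl, Gpihbp1 and Cd36 without predicted genes; Pdk4 and the marker genes named were chosen after their values were seen. A few genes that this rule names are not reported here. Simulated data, 3 against 2 libraries over 13965 genes, tested the fit: 10.2% of the genes with a simulated 1.25-fold change were recovered, 59.6% of those with 1.5-fold, 70% with 2-fold and 94% with 4-fold. False calls made up 4.17%. The simulated counts followed the dispersion trend fitted to these data, with 47 to 50 genes changed at each size and no exon length trend. The real libraries had a length trend and far more genes called, so these rates need not hold for them.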

Additional observations from a re-analysis of the deposited data

How the results depend on the processing

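Over 17 alternatives, Fabp4, Fabp5, Gpihbp1, Vldlr and Slc27a1 kept their direction and their call in each, with log2 fold changes of -1.38 to -1.13, -1.42 to -1.05, -0.91 to -0.61, 0.37 to 0.67 and 0.40 to 0.75. Cd36 kept its direction in all and its call in 15. The genes without a call were less stable, and all values that turned sign belong to Fabp3 and Lpl. Fabp3 was at 0.28 with the exon length offset, at 0.28 with length and GC offsets and at 0.26 with the replicate block and length offset together; why its length gives this shift is not measured beyond the trend over all genes. Lpl was at 0.21 without chow replicate 2 and at -0.36 without chow replicate 1; the cause was not tested. Angptl4 passed without a low-count filter (adjusted p 0.0139) and with upper quartile size factors (0.0491). The number of members lower was 3, and 3 to 5 with each library left out, 5 without chow replicate 1, where Lpl and Angptl4 joined; the number higher was 3, and 2 to 4 with each library left out. Over all genes, 2756 were higher and 2661 lower, with 2207 to 2574 and 2041 to 2355 when each library was left out, and at an adjusted p of 0.01 1729 were lower.

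The labels give replicates 1 and 2 in both diets but do not say that these numbers pair libraries, so they are not taken to pair them. Same-numbered libraries hardly deviated together (correlations of 0.0348 and 0.0258). The deviations of the 2 chow libraries from their mean mirror each other, so these correlations cannot decide on pairing. With the replicate number as a block 2753 genes were higher and 2579 lower, 3 members were higher and 4 lower, and Fabp3 passed as lower with a log2 fold change of -0.17 and an adjusted p of 0.0367. Depth limits Angptl4 most, at 60 to 176 counts per library, and with 2 chow libraries the spread of that group rests on 1 difference.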
